A study of Mus musculus with 27 samples.

Results

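Neutrophils carry a small set of very abundant transcripts for the proteins of their cytosol and granules, and 9 of these genes are described here in the heart of the CD-1 mouse, an outbred stock, at postnatal day 14. The genes are S100a8, S100a9, Retnlg, Camp, Ngp, Ltf, Lcn2, Mpo and Elane, chosen by symbol among the 51826 genes of the count table. They and the marker lists used below were chosen with earlier results of these data known. Shares of all genes set beside their counts therefore give a scale, and are no test of the chosen genes as a group. The table holds 27 whole-heart RNA-seq libraries, 3 in each of 9 groups, in sets that the labels call A and B. Set A compared saline with phenoxybenzamine (PHE), an alpha-adrenergic receptor blocker, with PHE plus the beta-adrenergic receptor blocker propranolol (PHE+PRO), and with both of these combinations after propylthiouracil (PTU+PHE, and PTU+PHE+PRO, called the triple combination). In set B the comparison was of saline with PRO, with PTU and with PTU+PRO. Propylthiouracil, which inhibits thyroid hormone synthesis, was fed to the mothers at 0.15% of an iodine-deficient chow from E13.5 on. PHE (10 ug per g per day) and PRO (20 ug per g per day) were injected under the skin daily from postnatal day 1, and the control pups received saline. All PHE groups were in set A, and the labels do not tie hearts to litters.

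S100A8 and S100A9 form calprotectin, a calcium- and metal-binding protein complex that fills the cytosol of neutrophils and is also made by some monocytes. The granules are filled in the order in which their proteins are made in the marrow. Myeloperoxidase (Mpo) and neutrophil elastase (Elane) enter the primary granules of promyelocytes, while cathelicidin (Camp), neutrophilic granule protein (Ngp), lactoferrin (Ltf) and lipocalin 2 (Lcn2) enter the secondary granules of later stages. Retnlg encodes resistin-like gamma, a secreted protein that in the mouse is found in marrow and neutrophils. Lcn2 is the least restricted of these genes, since epithelial and other cells also make it during inflammation. In heart tissue such transcripts can come from neutrophils in the wall or in the blood left in the vessels. In bulk RNA, fewer cells of a type and less RNA per cell cannot be told apart.

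The genes lie in 6 places of the mouse genome (mm10, GENCODE M21 gene bounds), and all 9 are annotated as protein-coding. S100a8 (ENSMUSG00000056054, chr3:90668978-90670035, plus strand) and S100a9 (ENSMUSG00000056071, chr3:90692632-90695721, minus strand) are 22.6 kb apart. Camp (ENSMUSG00000038357, chr9:109847379-109849617, minus strand), Ngp (ENSMUSG00000032484, chr9:110419747-110423012, plus strand) and Ltf (ENSMUSG00000032496, chr9:111019271-111042767, plus strand) share a stretch of chromosome 9, with 1169.7 kb between Camp and Ltf. Retnlg (ENSMUSG00000022651) is at chr16:48872621-48874496 on the plus strand, and Lcn2 (ENSMUSG00000026822) is at chr2:32384633-32388252 on the minus strand. Mpo (ENSMUSG00000009350) is at chr11:87793581-87804413 and Elane (ENSMUSG00000020125) at chr10:79886247-79888215, both on the plus strand. The library kit does not mark strand, and an annotated antisense gene overlaps Mpo, so reads of that pair cannot be told apart.

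The 250 bases before the RefSeq start (GRCm38.p6) are shown for 4 genes, because these represent the calprotectin pair and the chromosome 9 group, whose levels moved together in the hearts described further on. Each runs 5′ to 3′ on the strand of its gene, at chr3:90668821-90669070 for S100a8, chr3:90695722-90695971 for S100a9, chr9:110419558-110419807 for Ngp and chr9:111019042-111019291 for Ltf. Capitals mark matches, on either strand, to TTGCNNAA, a pair of C/EBP half-sites, and to GAGGAA, a core recognised by PU.1, factors that drive granulocyte genes.
S100a8: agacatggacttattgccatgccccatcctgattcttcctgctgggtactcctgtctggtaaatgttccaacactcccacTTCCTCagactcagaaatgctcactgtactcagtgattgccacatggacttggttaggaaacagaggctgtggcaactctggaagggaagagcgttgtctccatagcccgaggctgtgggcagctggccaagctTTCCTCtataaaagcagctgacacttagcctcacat
S100a9: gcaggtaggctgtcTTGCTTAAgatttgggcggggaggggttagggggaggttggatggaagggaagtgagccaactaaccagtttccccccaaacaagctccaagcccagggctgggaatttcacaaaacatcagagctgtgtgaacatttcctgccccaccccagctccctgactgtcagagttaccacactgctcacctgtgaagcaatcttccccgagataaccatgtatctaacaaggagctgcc
Ngp: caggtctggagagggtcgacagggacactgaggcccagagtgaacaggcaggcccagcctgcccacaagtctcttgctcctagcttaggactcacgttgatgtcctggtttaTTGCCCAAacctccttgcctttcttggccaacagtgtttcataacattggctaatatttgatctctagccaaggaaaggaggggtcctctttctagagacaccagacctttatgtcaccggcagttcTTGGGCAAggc
Ltf: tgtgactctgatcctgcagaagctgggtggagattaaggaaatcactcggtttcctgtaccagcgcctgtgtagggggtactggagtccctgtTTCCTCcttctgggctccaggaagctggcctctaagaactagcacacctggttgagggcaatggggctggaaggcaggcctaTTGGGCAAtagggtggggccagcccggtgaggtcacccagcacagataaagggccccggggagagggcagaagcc
In the window from 250 bases before to 50 bases after the start, TTGCNNAA was found for S100a9, Retnlg, Ngp, Ltf and Lcn2, 5 of the 9 genes, and in 10.8% of 32851 RefSeq promoter windows of the same 300 bases. Ngp held 2 such matches, at -138 and -11 from the start. GAGGAA was found for S100a8, Ltf, Lcn2, Mpo and Elane, again 5 of 9, and in 28.3% of all windows. No match of one motif overlapped a match of the other, and a match is a description of the sequence only. S100a8 held 2 GAGGAA matches, at -170 and -36, and the Camp window held neither motif.

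Libraries held 30791885 to 78913915 assigned reads. Cardiomyocyte markers summed to between 25300 and 87400 counts per 1e6 reads (CPM) in every heart. Of the PHE+PRO libraries, 2 share one column name and are called the unnumbered PHE+PRO hearts. Judged by sex-linked transcripts, all 3 PHE hearts were male, and saline hearts 1 and 2 were male and heart 3 female in both sets. Deviations of same-numbered saline hearts of sets A and B from their group means correlated across genes at 0.807 to 0.874, against -0.599 to -0.059 for other pairings, so the sets may hold libraries of the same saline animals. None of the 8 tested genes was called between the saline groups of the sets (edgeR, 0 called, 0 at an unadjusted p under 0.05 and 0 by DESeq2, where 4.26% of all 19119 genes tested were called). If the animals were the same, this comparison could not show a difference between animals of the sets. The fit treated all saline libraries as separate hearts.

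In saline hearts the genes were rare transcripts. S100a8 stood at 0.677, 1.30 and 0.436 CPM in set A and at 0.456, 0.953 and 0.538 CPM in set B. S100a9 stood at 1.16, 2.85 and 1.25 CPM in set A and at 0.627, 1.5 and 0.933 CPM in set B. Heart 2 was the highest saline heart for both calprotectin genes in both sets. Retnlg lay between 0.190 and 0.413 CPM in set A and between 0.0359 and 0.209 CPM in set B, the lowest resting on 2 reads. Camp ranged from 0.164 to 0.315 CPM, Ngp from 0.345 to 1.12 CPM, Ltf from 0.275 to 0.728 CPM and Lcn2 from 0.381 to 0.709 CPM in set A saline. Summed over the 9 genes, the level was 3.62 to 7.22 CPM in set A saline hearts and 3.19 to 4.45 CPM in set B saline hearts.

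Per kilobase of exon, the level of S100a9 was the highest of the 9 in every group and that of S100a8 came next. In set A saline hearts S100a9 averaged 3.37 ± 1.82 CPM per kb (SD, n = 3) and S100a8 1.16 ± 0.641 CPM per kb, and the ranges of these did not overlap. Ngp (0.602 ± 0.318 CPM per kb), Retnlg (0.503 ± 0.188), Camp (0.285 ± 0.113), Lcn2 (0.201 ± 0.0637) and Ltf (0.132 ± 0.0696) followed, and each overlapped its neighbour in that order. Mpo and Elane were lowest, at 0.00972 and 0.00616 CPM per kb. With PTU+PHE the order began in the same way, with S100a9 at 53.3 ± 27.7 and S100a8 at 26.7 ± 13.4 CPM per kb, and there the ranges of the pair overlapped.

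**Figure D1:**
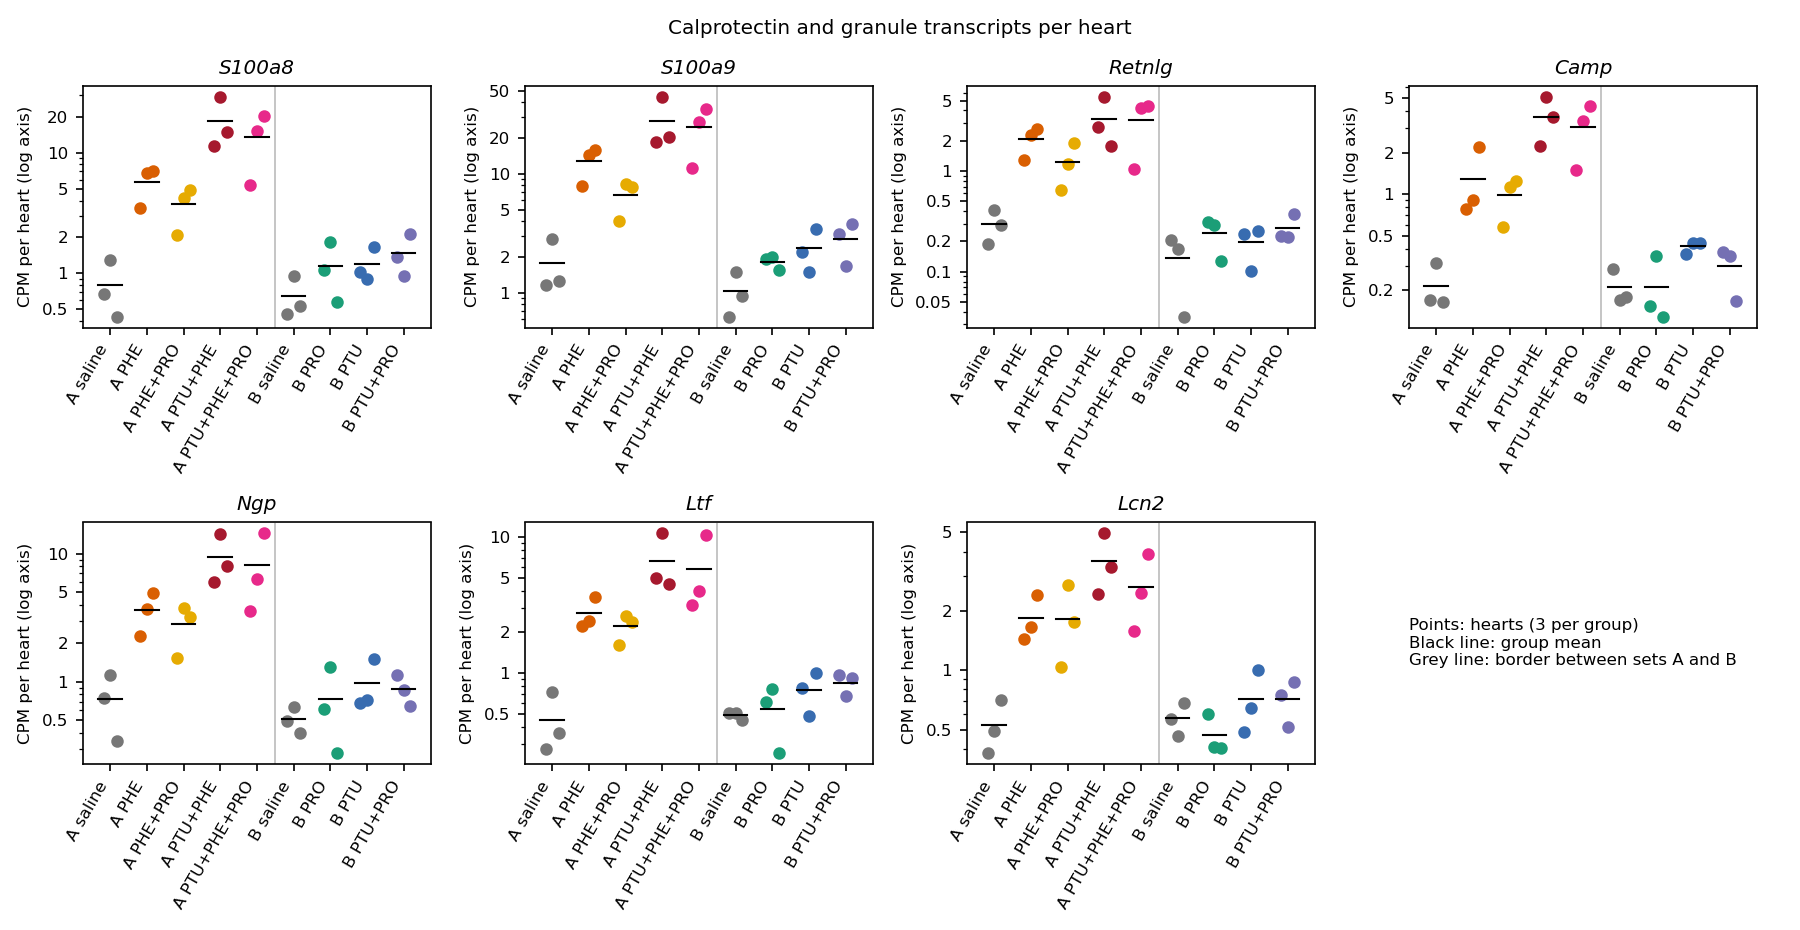
CPM (log axis) of 7 genes in each of the 27 hearts, by group, with the group mean as a black line and a grey line between sets A and B. The hearts given PHE, alone or in combination, stand above set A saline in every panel, and S100a9 reached 44.5 CPM with PTU+PHE.

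Alpha-adrenergic block alone raised 7 of the 9 genes, the calprotectin pair, Retnlg and the 4 secondary granule genes, by 3.43-fold to 7.22-fold. S100a8 measured 3.45, 6.73 and 7.02 CPM in the PHE hearts, and S100a9 measured 7.91, 14.3 and 16 CPM. Every PHE heart exceeded every set A saline heart for both genes. Against saline, S100a8 rose by 2.83 ± 0.557 on the log2 scale (SE, edgeR adjusted p = 0.0059) and S100a9 by 2.85 ± 0.502 (edgeR adjusted p = 0.0033). Retnlg, at 1.28, 2.30 and 2.61 CPM, rose by 2.76 ± 0.571 (edgeR adjusted p = 0.0065). Among all genes tested, 8.14% were called higher in this comparison.

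The secondary granule genes moved with them. Camp measured 0.777, 0.911 and 2.19 CPM in the PHE hearts and Ngp 2.26, 3.73 and 4.93 CPM. Ltf measured 2.21, 2.42 and 3.61 CPM, and Lcn2 measured 1.44, 1.66 and 2.41 CPM. In each of these 4 genes heart 3 was the highest, and none of the PHE values fell within the saline range. Ltf, the iron-binding protein of the granules, rose by 2.58 ± 0.470 log2 units (edgeR adjusted p = 0.0035), Camp by 2.55 ± 0.507 (0.0053), Ngp by 2.30 ± 0.567 (0.015) and Lcn2, which binds bacterial siderophores, by 1.78 ± 0.388 (0.0083). For 7 of the 9 genes the groups did not overlap, as they did not, in the higher direction, for 22.2% of all genes tested.

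With set A fitted on its own, 2 of the 7 stayed called with PHE (S100a9 and Ltf, edgeR adjusted p = 0.045 and 0.042). The 7 estimates then ran from 1.75 to 2.83 log2 units, beside 1.78 to 2.85 in the fit of all libraries. All 7 stayed called with the PHE and saline groups fitted alone. For such other fits, here and below, the share of all genes called is not given. Without saline heart 3 Ngp was no longer called (edgeR adjusted p = 0.086), nor were Ngp (0.083) and Lcn2 (0.056) without PHE heart 3.

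Propranolol given with PHE left the same 7 genes above saline, by 3.42-fold to 4.81-fold. In PHE+PRO heart 1 and the 2 unnumbered hearts, S100a8 measured 2.09, 4.23 and 4.93 CPM and S100a9 measured 4.01, 8.23 and 7.80 CPM. Heart 1 was the lowest of the 3 in 7 of the 8 tested genes, yet it too exceeded all set A saline hearts for the calprotectin genes. S100a8 rose by 2.22 ± 0.557 log2 units (edgeR adjusted p = 0.025), S100a9 by 1.92 ± 0.497 (0.028) and Ltf by 2.26 ± 0.473 (0.0073). Camp rose by 2.17 ± 0.516 (0.016), Retnlg by 2.02 ± 0.581 (0.042), Ngp by 1.94 ± 0.570 (0.048) and Lcn2 by 1.77 ± 0.390 (0.0099). The share of all genes called higher was 2.51%. The same 7 genes did not overlap saline, beside 14.9% of all genes. Set A fitted on its own called 0 of the 7 (edgeR adjusted p from 0.051 for Ltf to 0.14 for Retnlg, DESeq2 7 called on the full data), and 1 was called without saline heart 1, saline heart 3 or the first unnumbered heart, and 3 without the second.

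**Figure D2:**
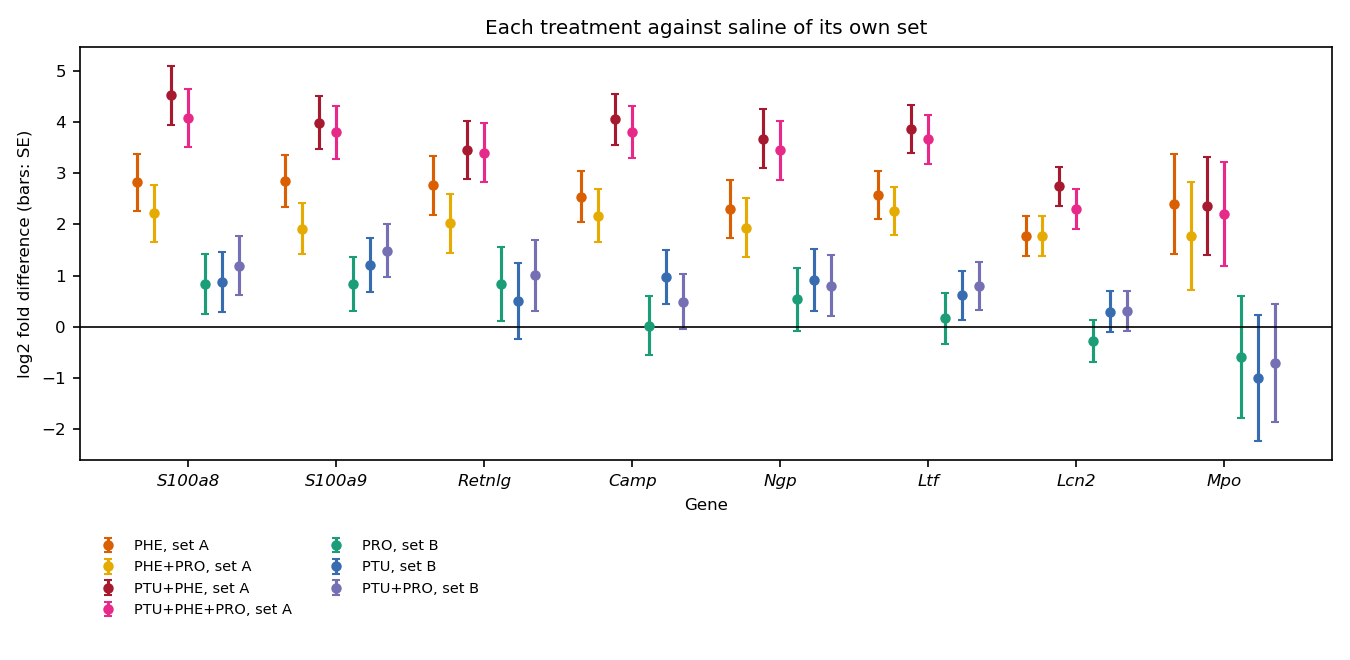
Log2 fold difference of each treatment from the saline group of its set for 8 genes, with standard errors (n = 3 hearts per group). The 4 groups given PHE lie above 0 for all 8 genes, highest with PTU+PHE for S100a8 at 4.52, whereas the set B groups lie between -1.0 and 1.49. Mpo, 1 of the 8, passed the filter on low counts only through hearts given PHE, so its place above 0 there is no separate evidence.

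The highest levels were reached where PHE was combined with PTU. S100a8 measured 11.4, 29.1 and 15 CPM in the PTU+PHE hearts and S100a9 measured 18.5, 44.5 and 20.6 CPM. Heart 2 was the highest in all 8 tested genes. Against saline, S100a8 rose 23.0-fold (log2 4.52 ± 0.578, edgeR adjusted p = 1.7e-06) and S100a9 15.8-fold (3.98 ± 0.518, 2.4e-06). The calprotectin pair, Retnlg and the 4 secondary granule genes were all called higher, beside 28.2% of all genes. For 7 of the 9 the groups did not overlap, beside 29.8% of all genes.

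Among the secondary granule genes of the PTU+PHE hearts, Camp measured 2.23, 5.06 and 3.60 CPM and rose by 4.06 ± 0.502 log2 units (edgeR adjusted p = 5.6e-07). Ngp measured 6.04, 14.2 and 8.04 CPM and rose by 3.68 ± 0.579 (2.0e-05). Ltf measured 4.95, 10.6 and 4.52 CPM and rose by 3.87 ± 0.476 (6.2e-07). Each of these ranges lies wholly above that of saline. Lcn2, at 2.44, 4.94 and 3.34 CPM, rose by 2.75 ± 0.387 (3.5e-06), the smallest log2 difference of the 7. Retnlg, at 2.73, 5.44 and 1.77 CPM, rose by 3.46 ± 0.570 (2.8e-05).

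The triple combination gave a like picture. S100a8 measured 5.45, 15.2 and 20.3 CPM and S100a9 measured 11.1, 27.5 and 35.3 CPM in the PTU+PHE+PRO hearts. Heart 3 was the highest and heart 1 the lowest in all 8 tested genes. S100a8 rose by 4.08 ± 0.572 log2 units (edgeR adjusted p = 4.6e-06), S100a9 by 3.80 ± 0.516 (3.3e-06), Camp by 3.81 ± 0.503 (1.2e-06) and Ltf by 3.66 ± 0.476 (1.1e-06). Ngp rose by 3.45 ± 0.577, Retnlg by 3.40 ± 0.573 and Lcn2 by 2.30 ± 0.389. Here 7 of the 9 genes were called, beside 28.7% of all genes called higher, and the same number did not overlap saline, beside 28.2% of all genes.

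In set B, where no heart received PHE, the calls against saline came down to 1, S100a9 with PTU+PRO. S100a8 measured 1.03, 0.895 and 1.65 CPM with PTU and S100a9 measured 2.19, 1.5 and 3.41 CPM. Heart 3 was the highest PTU heart in 7 of the 8 tested genes, and both calprotectin ranges overlapped or touched saline. The differences from saline were 0.87 ± 0.582 log2 units for S100a8 and 1.21 ± 0.525 for S100a9 (edgeR adjusted p = 0.29 and 0.090). Of the 8 tested genes, 0 were called with PTU, 1 had an unadjusted p under 0.05 and 0 were called by DESeq2, whereas 14.3% of all genes were called higher. Camp and Ngp, 2 of the 9, did not overlap saline, beside 26.9% of all genes. The intervals do not show equal levels: the 95% interval of S100a9 ran from 0.12 to 2.30. Fitted on set B alone, S100a9 was called (edgeR adjusted p = 0.023), and with the PTU and saline groups alone S100a9 (0.036) and Camp (0.031) were.

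With PRO alone, S100a8 measured 1.06, 1.82 and 0.573 CPM and S100a9 measured 1.9, 1.99 and 1.55 CPM, the latter all above the highest saline heart. PRO heart 3 was the lowest in 7 of the 8 tested genes. Of these, 0 were called, 0 had an unadjusted p under 0.05 and 0 were called by DESeq2, where 0.167% of all genes were called higher. S100a9 was the 1 gene whose groups did not overlap, beside 9.59% of all genes. The log2 differences ran from -0.28 to 0.84 for the calprotectin pair, Retnlg and the 4 secondary granule genes, and that of Mpo, at 5, 0 and 0 reads, was -0.59.

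PTU+PRO gave 1 call. S100a9 measured 3.08, 1.68 and 3.76 CPM and rose by 1.49 ± 0.518 log2 units (edgeR adjusted p = 0.029), beside 17.7% of all genes called higher. For 5 of the 9 genes the groups did not overlap, beside 28.7% of all genes. S100a8, at 1.37, 0.956 and 2.10 CPM, was 1.20 ± 0.570 log2 units above saline (0.11). The S100a9 call was lost without PTU+PRO heart 1 (edgeR adjusted p = 0.069) or heart 3 (0.11) and without saline heart 1 (0.13) or heart 3 (0.093). Fitted on set B alone, S100a8 (0.041) and S100a9 (0.0064) were called, and with the PTU+PRO and saline groups alone 4 genes were called.

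Across the series, all 12 hearts given PHE lay above all 15 others for S100a9, Retnlg, Camp, Ngp, Ltf and Lcn2, as they did for 1.52% of all genes tested. Among the others only the set A saline hearts shared the set of the PHE hearts, so this ordering mixes PHE with set. The 15 also count the saline libraries of both sets, which may come from the same animals. Within set A, all 12 exceeded every saline heart for these genes and for S100a8. For S100a9 the 12 ranged from 4.01 to 44.5 CPM and the 15 from 0.627 to 3.76 CPM. For S100a8, 11 of the 12 lay above all 15 others, since PHE+PRO heart 1 (2.09 CPM) stood beside PTU+PRO heart 3 (2.10 CPM).

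Whether PTU changed the level under PHE was tested within set A. Compared with PHE alone, PTU+PHE hearts had higher S100a8 (log2 difference 1.70 ± 0.494, edgeR adjusted p = 0.010), Camp (1.51 ± 0.421, 0.0067), Ngp (1.38 ± 0.510, 0.038), Ltf (1.29 ± 0.410, 0.016) and Lcn2 (0.97 ± 0.351, 0.034). These are 5 of the 9 genes, where 18.2% of all genes were called higher. S100a9 (1.13 ± 0.451, 0.055) and Retnlg (0.70 ± 0.484, 0.27) did not pass. Values of S100a8 did not overlap, from 3.45 to 7.02 CPM with PHE and from 11.4 to 29.1 CPM with PTU+PHE, and 6 of the 9 genes did not overlap, beside 22.1% of all genes. Without PTU+PHE heart 2, or without PHE heart 1, 1 gene was called, Camp, and without PHE heart 2 the calls were 2. Set A fitted on its own called 3, S100a8, Camp and Ltf, and with sex as a covariate Lcn2 was no longer called (edgeR adjusted p = 0.082).

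When PRO was also given, PTU raised 6 of the 9 genes over PHE+PRO. S100a9 differed by 1.88 ± 0.467 log2 units (edgeR adjusted p = 0.0024), S100a8 by 1.86 ± 0.505 (0.0047), Camp by 1.64 ± 0.435 (0.0034), Ngp by 1.51 ± 0.520 (0.021), Ltf by 1.40 ± 0.418 (0.0086) and Retnlg by 1.38 ± 0.507 (0.029). Lcn2 differed by 0.53 ± 0.358 (0.24). Of all genes 24.7% were called higher. For 4 of the 9 genes the groups did not overlap, beside 23.4% of all genes. Without PTU+PHE+PRO heart 3, or without PHE+PRO heart 1, 3 of the 6 remained called, S100a8, S100a9 and Camp. In set B the corresponding step, PTU+PRO over PRO, called 0 genes (0 at an unadjusted p under 0.05, 0 by DESeq2, 15% of all genes called higher), with log2 differences of 0.17 to 0.65 for the 7 genes.

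The effect of PTU+PHE over its saline was larger than that of PTU over the saline of set B, when the difference between the effects was tested. It was 3.65 ± 0.806 log2 units for S100a8 (edgeR adjusted p = 0.0040) and 2.77 ± 0.720 for S100a9 (0.011), and 7 of the 9 genes were called, beside 11.4% of all genes called higher. This contrast takes each set against its own saline, and set and PHE cannot be told apart in it beyond that. For PHE+PRO against PRO the same kind of contrast called 0 genes, with 3 at an unadjusted p under 0.05 and 1 called by DESeq2, Lcn2 (adjusted p = 0.039), where 0.136% of all genes were called higher. Its estimates were 1.08 to 2.15 log2 units for the 7 genes.

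Propranolol added to another treatment changed none of the genes by the test. PHE+PRO hearts differed from PHE hearts by -0.61 ± 0.499 log2 units for S100a8 (95% interval -1.65 to 0.43, edgeR adjusted p = 0.50) and by -0.93 ± 0.460 for S100a9 (-1.89 to 0.03, 0.24). All 7 estimates were below 0, and 0 were called, with 0 at an unadjusted p under 0.05 and 0 by DESeq2, beside 5.82% of all genes called in either direction. PTU+PHE+PRO differed from PTU+PHE by -0.45 ± 0.478 for S100a8 (-1.44 to 0.55, 0.72), again with 0 called, 0 at an unadjusted p under 0.05 and 0 by DESeq2 and with 2.87% of all genes called. PTU+PRO against PTU gave 0 calls by the same 3 counts, beside 0.643% of all genes called. The PTU by PRO interactions, in set B and under PHE in set A, also gave 0, 0 and 0, where 0.0157% and 1.05% of all genes were called.

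**Figure D3:**
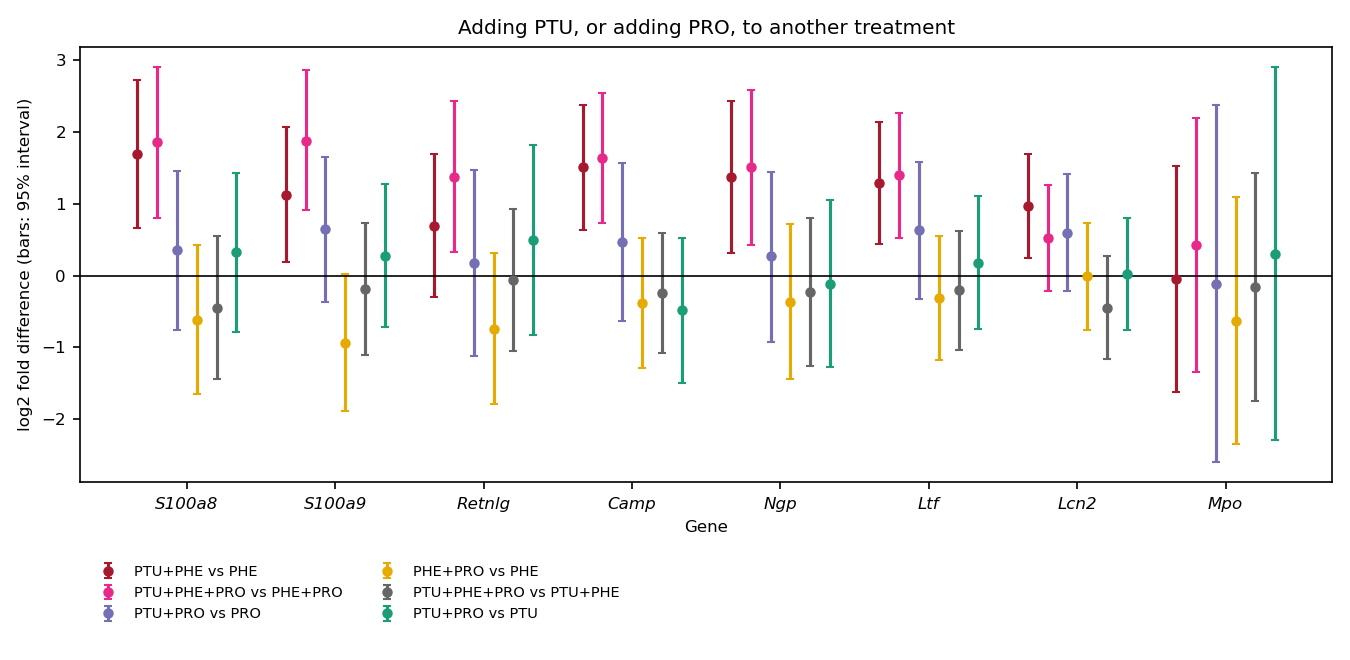
Log2 fold difference when PTU or PRO was added to another treatment, for 8 genes, with 95% intervals from the edgeR fit (n = 3 hearts per group). The intervals for PTU added to PHE lie above 0 for S100a8 (0.67 to 2.72), and those for PRO added to PHE or to PTU+PHE include 0 for all 8 genes.

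The 9 genes were also summed in each heart. The sum was 19.45 to 39.2 CPM with PHE, 11.6 to 23.9 CPM with PHE+PRO, 48.5 to 114 CPM with PTU+PHE and 27.5 to 93.3 CPM with PTU+PHE+PRO. It was 3.32 to 6.92 CPM with PRO, 4.86 to 9.33 CPM with PTU and 5.31 to 8.90 CPM with PTU+PRO. Calprotectin made up 46.7% to 57.5% of the sum in set A saline, 58.4% to 65.4% with PHE, 52.1% to 54.5% with PHE+PRO and 61.6% to 64.5% with PTU+PHE. Lcn2, by contrast, took 6.81% to 19.6% of the sum in set A saline and 4.33% to 5.86% with PTU+PHE, and these ranges did not overlap. Reads of S100a9 outnumbered those of S100a8 in all libraries, by 1.37 to 1.62 with PTU+PHE, 2.12 to 2.29 with PHE and 1.09 to 2.88 over the series.

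The primary granule genes stayed close to the detection limit. Mpo had 124 reads in all 27 libraries together. It reached 0.184 CPM, the minimum of the filter on low counts, in 5 hearts, all given PHE, so that it entered the tests only through hearts where it was high. Reads numbered 8, 3 and 16 in the PHE hearts, 16, 15 and 3 with PTU+PHE, 4, 9 and 8 with PTU+PHE+PRO, and 3, 0 and 2 in set A saline. The PHE groups overlapped saline except PHE+PRO, with 6, 3 and 6 reads. Its log2 differences from saline were 2.40 ± 0.985 with PHE (edgeR adjusted p = 0.096), 2.36 ± 0.965 with PTU+PHE (0.043) and 2.20 ± 1.01 with PTU+PHE+PRO (0.069), and the call with PTU+PHE was lost in DESeq2 (0.065), with the length trend removed (0.051) and without PTU+PHE heart 1 or 2 or saline heart 2 or 3 (0.098 to 0.16). Elane had 22 reads in all, did not pass the filter and was not tested. It had 0 reads in the 3 set B saline hearts, which at 3 reads per library allows up to 0.0538 to 0.0635 CPM, and 4 reads at most, in PTU+PHE heart 2.

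Other genes of the mature neutrophil were followed through a list of 14 surface and cytosol markers, of which 13 could be tested. With PHE 5 were called higher (8.14% of all genes), with PHE+PRO 2 (2.51%), with PTU+PHE 11 (28.2%) and with PTU+PHE+PRO 12 (28.7%). In set B the calls were 4 with PTU (14.3%), 5 with PTU+PRO (17.7%) and 0 with PRO (0.167%). The 14 genes summed to 10.3 to 14.1 CPM with PHE and 12.6 to 22.1 CPM with PTU+PHE, against 6.25 to 6.81 CPM in set A saline. In set B the sum was 10.4 to 28.2 CPM with PTU and 4.15 to 8.97 CPM with PTU+PRO, against 5.65 to 6.33 CPM in saline. A sum is weighted to its most abundant genes, and the medians of the 13 tested genes gave another order. The median log2 difference from saline was 1.02 with PTU and 1.3 with PTU+PRO, against 2.53 with PTU+PHE. Lower calls numbered 1 with PTU+PHE+PRO and 1 with PTU+PRO, both times Hdc, which makes histamine and was named after its values were seen. Stfa2l1, a stefin of the cystatin protease inhibitors, rose by 3.21 ± 0.463 log2 units with PHE (edgeR adjusted p = 0.00059), 2.45 ± 0.479 with PHE+PRO (0.0044) and 4.73 ± 0.457 with PTU+PHE (1.4e-08). It measured 0.0846 to 0.197 CPM in set A saline, 1.16 to 1.47 CPM with PHE and 2.69 to 6.02 CPM with PTU+PHE. Cd177, a neutrophil surface protein, rose by 2.68 ± 0.577 with PTU+PHE (0.00046), as did the lectin receptor Clec4d by 2.34 ± 0.401 (4.1e-05) and the protease Asprv1 by 2.69 ± 0.537 (0.00022). Ly6g, the surface antigen used to define mouse neutrophils and named after its values were seen, stood at 0 to 0.0182 CPM in set A saline, 0.0880 to 0.274 CPM with PHE and 0.157 to 0.698 CPM with PTU+PHE. The receptor gene Csf3r, through which G-CSF acts on granulocytes, rose by 1.43 ± 0.360 with PHE (0.015), 1.67 ± 0.358 with PTU+PHE (0.00046) and 1.02 ± 0.361 with PTU in set B (0.036).

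Of 11 other granule genes, 8 were tested. With PHE 4 were higher and 1 lower, and with PTU+PHE 6 were higher and 2 lower, beside 8.14% and 28.2% of all genes called higher. PHE+PRO gave 1 higher call (2.51% of all genes), and PTU+PHE+PRO gave 6 higher and 2 lower (28.7%). In set B 0 were higher and 2 lower with PTU (14.3%), and 3 higher and 2 lower with PTU+PRO (17.7%). PRO gave 0 calls (0.167%). The percentages are shares of all genes called higher, and no share called lower is set beside the lower calls. Mmp9, a gelatinase of the tertiary granules, rose by 1.94 ± 0.398 log2 units with PHE (edgeR adjusted p = 0.0062) and 2.32 ± 0.397 with PTU+PHE (4.0e-05). Pglyrp1, a peptidoglycan-binding granule protein, rose by 1.58 ± 0.339 (0.0077) and 2.29 ± 0.334 (5.2e-06). The genes that fell with PHE or PTU+PHE are shared with macrophages. Cybb, the phagocyte oxidase subunit, fell by 0.81 with PHE (SE 0.193, 0.012) and by 1.04 with PTU+PHE (SE 0.194, 0.00010). Lysozyme Lyz2 fell by 0.81 with PTU+PHE (SE 0.152, 0.00012).

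Factors of granulocyte production and recruitment gave calls in both directions. Here too the lower calls stand without the share of all genes called lower. Of 5 tested granulopoiesis factors, Csf3r included, 1 was higher and 0 lower with PHE, and 1 higher and 3 lower with PTU+PHE, the fallen being Spi1, Cebpb and Cebpa. Spi1, which encodes PU.1, fell by 0.49 (SE 0.165, edgeR adjusted p = 0.015) with PTU+PHE and by 0.98 (SE 0.164, 6.0e-05) with PTU in set B. The saline groups themselves differed for this list, whose 8 genes summed to 25.5 to 38.3 CPM in set A and 95.6 to 138 CPM in set B. Of the 5 tested, 2 were called lower in set A saline, beside 4.26% of all genes called in either direction. Cebpe, Gfi1 and the G-CSF gene Csf3 were too low to test. Of 10 attraction and adhesion genes tested, 0 were higher and 1 lower with PHE, the chemokine gene Cxcl2, named after its values were seen, with 0.127 to 4.03 CPM in saline and 0.0746 to 0.124 CPM with PHE. With PTU+PHE 3 of the 10 were higher, a share near the 28.2% of all genes, and 5 were lower. Among them, the endothelial adhesion molecules Vcam1 (1.05 ± 0.177, 3.5e-05) and Sele (1.12 ± 0.279, 0.0018) rose, and Cxcl12 fell by 1.64 (SE 0.169, 3.9e-08). Of 9 cytokine and calprotectin receptor genes tested, 0 were higher and 1 lower with PHE. With PTU+PHE 1 was higher, Ager, which encodes a receptor for S100 proteins (1.21 ± 0.263, 0.00050), and 3 were lower.

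**Figure D4:**
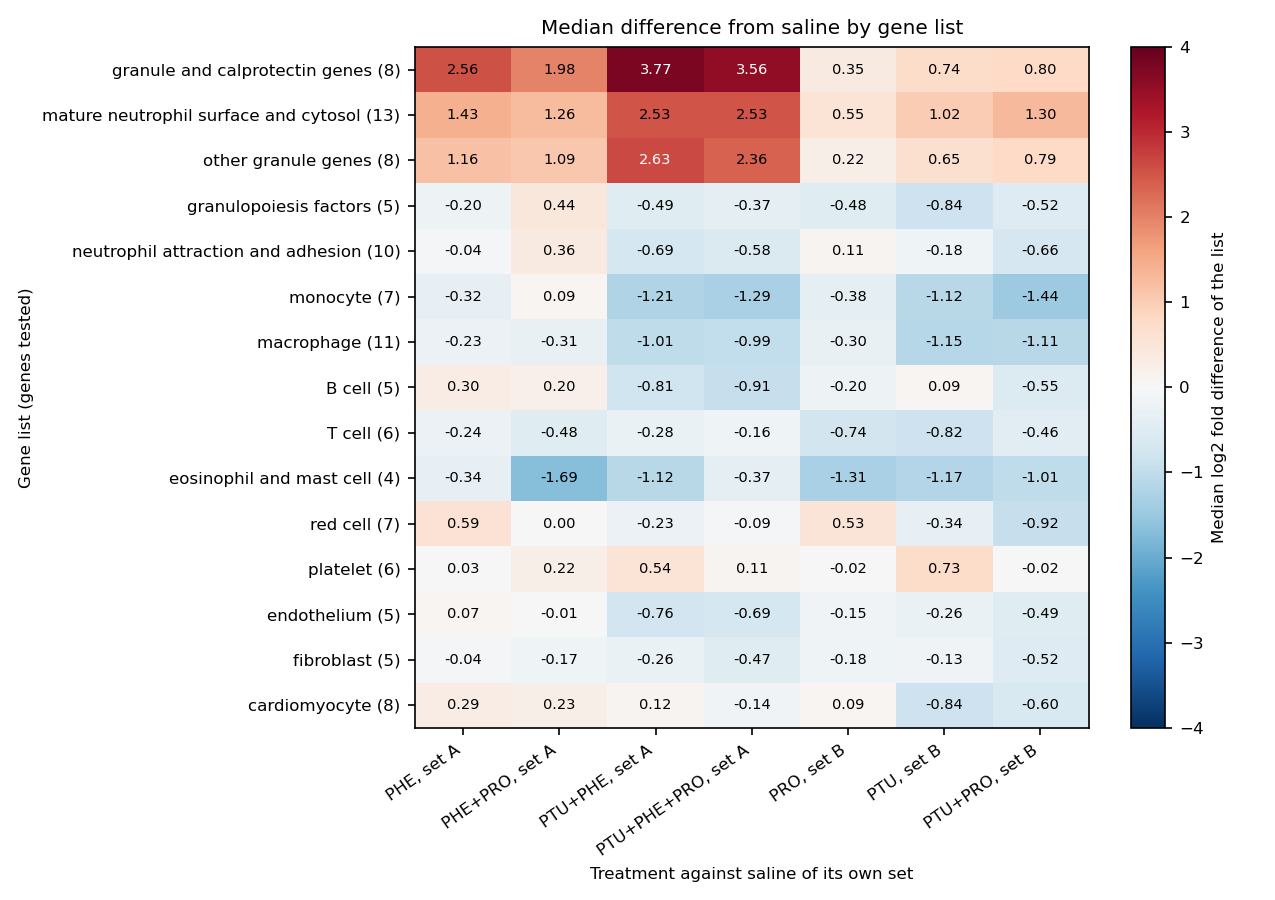
Median log2 fold difference from saline of each gene list (rows, with the number of genes tested) for each treatment (columns). The row of granule and calprotectin genes runs from 1.98 to 3.77 in the PHE columns. The macrophage row lies at -0.23 with PHE, -0.31 with PHE+PRO and -1.01 with PTU+PHE, and at -1.15 with PTU and -1.11 with PTU+PRO in set B.

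Markers of other leukocytes and of blood were measured beside these genes. The share of all genes called lower is not given beside the lower counts of this paragraph. All 11 macrophage markers were called lower with PTU+PHE and 4 with PHE. Their median log2 difference was -1.01 with PTU+PHE and -0.23 with PHE, beside 0.039 and 0.013 over all genes tested. The macrophage sum was 174 to 204 CPM in set A saline, 131 to 182 CPM with PHE and 81.9 to 91.1 CPM with PTU+PHE. The fall was also seen in set B without PHE, where 10 of the 11 were lower with PTU and 11 with PTU+PRO. There the macrophage sum was 84.4 to 91.8 CPM with PTU against 170 to 203 CPM in saline. Of 7 monocyte markers, 1 was lower with PHE, F13a1, and 5 lower and 1 higher with PTU+PHE. B cell markers (5) and T cell markers (6) gave 0 calls with PHE, and 2 and 1 lower calls with PTU+PHE. The 4 tested mast cell markers gave 0 calls against either. The red cell list bears on blood left in the heart: 0 of 7 genes tested were called with PHE, although their sum was 1550 to 2370 CPM against 825 to 1570 CPM in saline, and its part in the PHE result was not tested. With PTU+PHE the red cell sum was 866 to 1390 CPM and 0 of the 7 were called. Of 6 platelet genes 0 were called with PHE, and 2 were higher and 0 lower with PTU+PHE. Of the non-blood lists, 3 cardiomyocyte genes were higher and 1 lower with PHE, and the endothelial (5) and fibroblast (5) lists gave 0 calls. With PTU+PHE all 5 endothelial and 3 fibroblast genes were lower. Endothelial genes were also lower in set B, 3 with PTU and 4 with PTU+PRO. Of 8 cardiomyocyte genes 3 were higher and 3 lower with PTU+PHE, at a median log2 difference of 0.12. Their sum was 44500 to 47700 CPM against 69900 to 78500 CPM in saline. The part of these shifts, and of blood, in the PTU+PHE result was not tested. Keratins Krt8 and Krt18, listed as epithelial markers, were higher with PTU+PHE by 4.26 ± 0.341 and 5.10 ± 0.318 log2 units (edgeR adjusted p = 6.9e-10 and 1.7e-11), and with PHE Krt18 was higher by 1.23 ± 0.310 (0.016). Both keratins were also called higher with PTU in set B, at a median log2 difference of 3.49. The other 3 genes of that list were too low to test.

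Read coverage by transcript length also differed with PHE. The trend of log2 counts against exonic length, read at the length of S100a8, was -0.065 to -0.015 in set A saline libraries, 0.045 to 0.195 with PHE and 0.154 to 0.269 with PTU+PHE. With that trend removed, S100a8 was higher by 2.66 log2 units with PHE and 4.28 with PTU+PHE (edgeR adjusted p = 0.011 and 3.9e-06). The same correction ended 4 calls at little changed estimates: Retnlg (1.9, edgeR adjusted p = 0.052) and Ngp (1.83, 0.065) with PHE+PRO, Mpo with PTU+PHE (2.29, 0.051), and Retnlg in the PTU+PHE effect less the PTU effect (2.70, 0.050).

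Genes whose pattern over the 27 libraries was nearest to that of calprotectin were ranked by the root mean square distance between centred log2 values, among 13668 genes of at least 1 CPM. The median distance of all ranked genes was 1.76. Of the 9 genes themselves, Ngp stood at 0.428, Ltf at 0.452, Camp at 0.579, Retnlg at 0.598 and Lcn2 at 0.818. Of the 10 nearest other genes, 3 are gene models without a proper name and were only counted. The 7 named ones were Stfa2l1 at 0.357, nearer than any granule gene, Stfa2, another stefin, at 0.575, the haptoglobin gene Hp at 0.676, Cdkn3, a cell cycle phosphatase gene, at 0.868, Mmp9 at 0.934, Cks2, a kinase subunit gene of the cell cycle, at 0.946 and the cyclophilin gene Ppia at 0.958. Stefin genes lie in a family of near-identical copies, among which the counting may have split reads, so their single values are uncertain.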

How the data were processed

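Whole hearts were profiled by RNA-seq in 27 libraries. Per the labels' protocols, RNA was extracted with Trizol and libraries were made with the TruSeq RNA Library Prep Kit v2. Per the submitters' processing notes, the tools were cutadapt 1.9, STAR 2.5.2b and featureCounts 1.5.1 with the mm10 genome. Which annotation was counted, whether strand was used and how multiply mapped reads were treated is not given in the sources used here. The values the authors deposited are raw counts per gene, with no normalization. The 9 genes and the marker lists were chosen with earlier results of these data known.

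Identifiers were matched to GENCODE M21 symbols (51633 of 51826). One edgeR 4.0.16 quasi-likelihood model (R 4.3.3, robust, TMM factors, 9 group means, 18 residual degrees of freedom) was fitted to the 19119 genes kept by filterByExpr (minimum count 10, minimum total 15). In each of 18 comparisons the two-sided p was adjusted after Benjamini and Hochberg across every gene tested, and a gene was called below 0.05. Counts of lower calls are given without the share of all genes called lower. CPM values use TMM-scaled library sizes, and CPM per kb divides them by exonic length. The fit was tested on simulated counts.

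Nothing says that hearts of a group came from separate litters, so p-values measure the spread between these hearts. A count of 0 allows 3 reads in a library, and such limits cover counting error only. Replicates within groups differed by more than sampling noise. Replicate numbers paired the libraries only between the saline groups, where same-numbered hearts deviated together in every pair (0.807 to 0.874). All 9 genes were described, and from each other list at most 4 genes with the smallest p against saline were named, with exceptions stated. Other settings tried were DESeq2 1.42.0, RLE factors, all genes kept whatever their count, models of 1 set or of only the groups compared, a replicate block, sex as a covariate, a length offset and each library left out. A block for the saline hearts alone was added after the data had been seen.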

Additional observations from a re-analysis of the deposited data

Results flagged for a closer look

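The effect of PTU+PHE over saline of set A exceeded that of PTU over saline of set B in 7 genes by a test of the difference itself. Among all genes tested, 11.4% were called higher in this contrast. On the log2 scale the excess was 3.652 for S100a8, 2.774 for S100a9, 2.957 for Retnlg, 3.087 for Camp, 2.762 for Ngp, 3.251 for Ltf and 2.451 for Lcn2 (edgeR adjusted p from 0.0023 to 0.031). All PHE hearts were in set A and all hearts with PTU alone in set B. The number of calls among the 7 was 5 to 7 when single libraries were left out, and Retnlg and Ngp were the genes whose calls were lost.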

How the results depend on the processing

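RLE factors changed no call of a gene, and the replicate block for the saline hearts alone changed none either. For PHE against saline the number of genes called, 7, became 2 with set A fitted alone and 5 to 7 when single libraries were left out. For PHE+PRO against saline, 7 became 0 with set A alone, 3 without a filter on low counts, 0 with the replicate block (which also leaves out the 2 unnumbered PHE+PRO hearts) and 1 to 7 when single libraries were left out. For PTU+PHE against PHE, 5 became 3 with set A alone, 3 without a filter and 1 to 6 over single libraries left out. For PTU+PHE+PRO against PHE+PRO, 6 became 3 with the replicate block and 3 to 6 over single libraries left out. For PTU against saline, 0 became 1 with set B alone and 2 with the groups compared alone. For PTU+PRO against saline, 1 became 2 with set B alone, 4 with the groups compared alone, 0 without a filter and 0 to 1 over single libraries left out. For PHE+PRO less PRO across sets, 0 became 1 in DESeq2, 1 without a filter and 0 to 1 over single libraries left out. The shares of all genes called under these settings are not given, and the cause was not tested. Replicate numbers paired only the saline groups; in the other comparisons hearts shared only a number, with correlations from -0.474 to 0.383. Calls against saline with PTU+PHE (7 to 8) and PTU+PHE+PRO (7 to 8) kept within that range over single libraries left out, and no estimate of a called gene turned its direction. Depth limits Mpo and Elane, with 124 and 22 reads in the series.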
